A study of Mus musculus with 6 samples.

Results

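The genes of 10 glutamate receptor subunits and receptors were followed in poly-A RNA of mouse retinal ganglion cells (RGCs), the output neurons of the eye. They are Gria1, Gria2, Gria3 and Gria4 (AMPA receptors), Grin1, Grin2a, Grin2b and Grin3a (NMDA receptors), Grik2 (a kainate receptor) and Grm7 (a metabotropic receptor). The members were chosen by gene name, with earlier results of these data known. All 10 of them have an entry among the 10361 gene names of the deposited table. Each of the 10 has a single assembled locus, and all 10 passed the minimum of a mean of 1 FPKM over the libraries. FPKM counts fragments per length of transcript and scales them to the mapped fragments of the library. Levels are therefore compared between genes per length. Such comparisons, and ratios between genes, depend on the transcript lengths used, which are not given.

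The cells came from wild-type mice of the strain given as C57/6NCrl, in 3 groups of 2 libraries. Adult control RGCs carried AAV2, a viral vector, with a scrambled shRNA mimic and the red fluorescent protein mCherry. Adult miR-1247 RGCs carried AAV2 that supplied a miR-1247-5p mimic, a stand-in for that microRNA, and were likewise mCherry positive. The adult age is not given more closely. RGCs of embryonic day 18 (E18) received no vector. All cells were purified on antibody to Thy1. About 5000 adult cells per condition, from 10 retinas, were then sorted for mCherry, whereas about 50000 E18 cells were not sorted. Age, vector, sorting and cell number cannot be told apart between E18 and adult libraries. No label says that the 2 libraries of a group came from separate animals, so p-values reflect variation among these libraries alone, and that variation may be technical.

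Glutamate is the transmitter that bipolar cells release onto RGCs. AMPA receptors are tetramers of the products of Gria1 to Gria4 and carry fast excitation. GluA2, the product of Gria2, makes the channel nearly impermeable to calcium once its pore codon has been changed by RNA editing. NMDA receptors need the GluN1 subunit, from Grin1, and take GluN2 or GluN3 subunits beside it. In many parts of the brain GluN2B precedes GluN2A in development, and GluN3A is known from young neurons. Kainate receptors such as GluK2 can act before and after the synapse, and mGluR7, from Grm7, is a receptor coupled to G proteins that restrains transmitter release.

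The libraries carried the genes that define RGCs. All 14 RGC marker genes looked up (among them Rbpms, Slc17a6, Thy1, Pou4f1 and Isl1) had entries, with summed levels of 3440 and 3385 FPKM in control, 2121 and 2097 FPKM in miR-1247 and 5583 FPKM in both E18 libraries. None of the 6 microglial and 5 cone genes looked up has an entry, and they were not analysed here. Of 10 amacrine genes 4 have entries. Their sum was 138 and 158 FPKM in control, 181 and 210.5 FPKM in miR-1247 and 3.87 and 4.79 FPKM in E18, where Npy was at 0 in 1 library. Of 10 Müller glia and astrocyte genes 5 have entries, with sums of 1409 and 1063 FPKM in control, 1825 and 1713 FPKM in miR-1247 and 167 FPKM in both E18 libraries. Of these 5, 4 were lower in E18, and Vim was higher (mean 1.12 FPKM in control and 42.7 FPKM in E18). Sums over 3 of 9 bipolar genes were 25.1 and 30.04 FPKM in control, 40.4 and 40.9 FPKM in miR-1247 and 12.7 and 11.3 FPKM in E18, and over 3 of 9 rod genes 46.8 and 45.6, 26.9 and 24.3, and 6.41 and 5.57 FPKM. Of 8 progenitor genes 2 have entries. Dapl1 was at 0 in all 4 adult libraries and at 14.2 FPKM in both E18 libraries. Hes6 had means of 19.1 FPKM in control, 21.0 FPKM in miR-1247 and 37.0 FPKM in E18. The 2 adult groups also differed by RGC markers. In the model described below all 14 were called lower with miR-1247, as were 6.22% of all genes tested. Of the genes of other cell types, Mbp (oligodendrocytes, log2 difference 0.62) and Dkk3 (glia, 0.35) were called higher. Rom1 (rods, −0.98) and Calb1 (horizontal cells, −1.16) were called lower. The part of these differences in the results below was not tested, and in such bulk samples fewer cells of a type and less RNA per cell cannot be told apart. Totals of listed FPKM ran from 339224 to 392238 per library, and counts of reads are not in the table, so depth is unknown.

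Of the 10 glutamate receptor genes followed, most were lower in E18 than in adult control RGCs, and Gria2 and Grik2 were higher. In the limma model of log2(FPKM + 1), fitted to all 9987 genes with an adjusted p under 0.05 as the threshold, 7 of the 10 genes were lower in E18, 2 were higher and 1 (Grin2b) did not pass. Of all genes tested, 70.1% were called in this comparison, 40.2% higher and 29.8% lower in E18. The 4019 genes higher and 2979 lower were 3400 and 3427 under median ratio scaling. A count of 9 called genes in 10 is therefore read against a background in which most genes are called. The count of lower genes lies above the background of its direction. This is a description that carries no test, since the 10 genes were chosen with earlier results of these data known. The median difference of the 10 genes was −0.77 (log2), against 0.16 for all genes. Summed over the 10 genes, the level was 262 and 260 FPKM in control and 151 and 158 FPKM in E18.

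**Figure D1:**
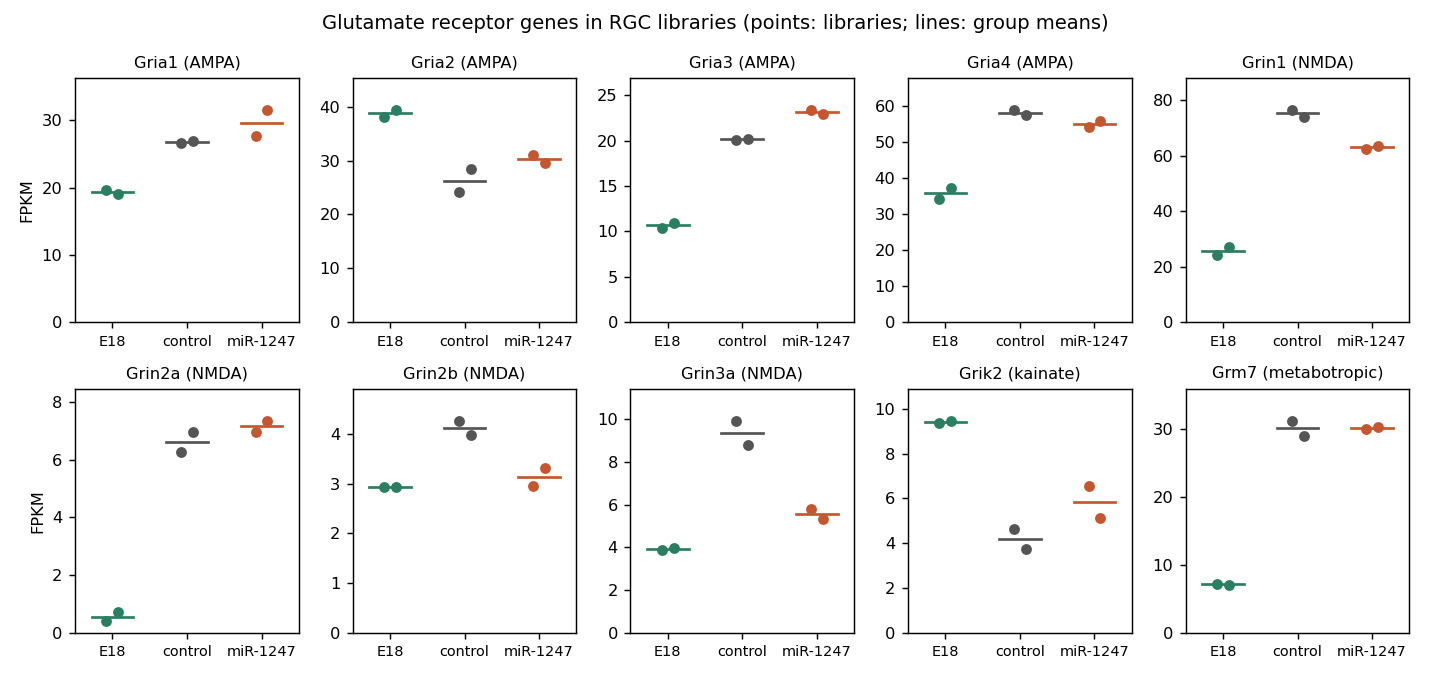
FPKM of each of the 10 glutamate receptor genes (y axes start at 0 and differ between panels) in the 2 libraries of each group (points) with the group mean (line). Gria2 and Grik2 stand higher in E18 than in both adult groups, and Grin1, Grin2a and Grm7 far lower.

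Of the AMPA receptor genes, Gria2 was the only one higher in E18. It lies on chromosome 3 (80588757 to 80710756; this and the other loci are in mm39). Its level was 24.1 and 28.4 FPKM in control and 38.2 and 39.3 FPKM in E18. Both E18 libraries stood above both control libraries, with means of 26.3 ± 3.03 and 38.8 ± 0.825 FPKM (SD, n = 2), a log2 difference of 0.55 ± 0.0988 (standard error, adjusted p = 0.00242).

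The other AMPA genes were lower in E18. Gria3 (chromosome X, 40489553 to 40767478) was at 20.1 and 20.2 FPKM in control and 10.4 and 10.97 FPKM in E18 (log2 difference −0.86 ± 0.0943, adjusted p = 2.28e-04). Gria4 (chromosome 9, 4417896 to 4796236), whose product GluA4 forms channels with fast kinetics, was at 58.9 and 57.5 FPKM in control and 34.3 and 37.2 FPKM in E18 (−0.69 ± 0.0714, adjusted p = 1.74e-04). Gria1 (chromosome 11, 56902485 to 57221096) had the smallest difference of the 4, with 26.6 and 27.0 FPKM in control and 19.6 and 19.0 FPKM in E18 (−0.45 ± 0.0951, adjusted p = 0.00496). In none of the 3 genes did the libraries of the groups overlap. The share of all genes without overlap was not computed, so overlap is a description only, here and below.

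The make-up of the AMPA pool differed accordingly. Gria2 gave 37.2% and 36.9% of the summed FPKM of Gria1 to Gria4 in the E18 libraries, and 18.6% and 21.3% in control. The share of Gria4 was 33.5% and 34.9% in E18 and 45.4% and 43.2% in control, where Gria4 was the most abundant of the 4. For each Gria2 transcript per length there were 1.70 ± 0.0162 of the other 3 genes in E18 and 4.03 ± 0.487 in control. These ratios are taken within a library and do not depend on how libraries were scaled. With 2 libraries against 2 the exact permutation test cannot go below p = 0.333 (two-sided), so they are given without a test.

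The enzymes that edit receptor RNA were lower in E18 too. Adarb1, which encodes the deaminase that edits the Gria2 pore codon, was at 207 and 200.4 FPKM in control and 18.0 and 20.1 FPKM in E18, with no overlap (log2 difference −3.36 ± 0.0673, adjusted p = 1.83e-07). Adar, a related deaminase, differed by −0.45 ± 0.0962 (adjusted p = 0.00532). Editing itself cannot be read from expression levels and was not measured here.

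Of the 4 NMDA receptor genes 3 were lower in E18, to very different extents. Grin1 (chromosome 2, 25179927 to 25209204), which every NMDA receptor requires, was at 76.5 and 74.2 FPKM in control and 24.4 and 27.2 FPKM in E18. That is a control mean of 75.3 ± 1.60 and an E18 mean of 25.8 ± 1.98 FPKM (log2 difference −1.51 ± 0.0760, adjusted p = 6.47e-06). Grin2a (chromosome 16, 9385762 to 9812787), for the GluN2A subunit of mature synapses, was at 6.27 and 6.95 FPKM in control and 0.397 and 0.724 FPKM in E18. Its group means stood in a ratio of 11.8, and on the log2(FPKM + 1) scale, which understates the change of low genes, the difference was −2.29 ± 0.181 (adjusted p = 4.86e-05). With a pseudocount of 0.1 in place of 1 it was −3.39. Grin3a (chromosome 4, 49661611 to 49845747) was at 9.92 and 8.78 FPKM in control and 3.87 and 3.95 FPKM in E18 (−1.07 ± 0.145, adjusted p = 6.14e-04). All 3 genes had both E18 libraries below both control libraries, again without a count over all genes.

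Grin2b (chromosome 6, 135690221 to 136152662), for the GluN2B subunit, was the NMDA gene that did not pass. It was at 4.27 and 3.98 FPKM in control and 2.93 and 2.94 FPKM in E18, groups that do not overlap. The log2 difference was −0.38 ± 0.163 (95% interval −0.77 to 0.01) and did not pass the threshold (adjusted p = 0.0757). It passed under median ratio scaling (−0.50, adjusted p = 0.0311), quantile normalization (−0.55, adjusted p = 0.0213), equal totals without mitochondrial genes (−0.48, adjusted p = 0.0359) and without a variance trend (adjusted p = 0.0137).

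Of the GluN2 pair, Grin2b was the more abundant in E18 and Grin2a in control. In E18 this rests on Grin2a at 0.397 and 0.724 FPKM, low values for which no limit is known. Grin2b itself was at 2.93 and 2.94 FPKM there, not above control. Grin2b made up 88.1% and 80.2% of the sum of Grin2a and Grin2b in the E18 libraries and 40.5% and 36.4% in control, and the libraries of the groups did not overlap. Relative to Grin1, Grin2b stood at 12.04% and 10.8% in E18 and 5.58% and 5.37% in control. Grin3a was at 15.9% and 14.5% of Grin1 in E18 and at 13.0% and 11.8% in control. Together these 3 partner genes amounted to 28.8% ± 1.06 of Grin1 in E18 and 26.7% ± 0.137 in control. The other NMDA subunit genes Grin2c, Grin2d and Grin3b have no entry. All NMDA shares and sums given here leave them out. The ratio of summed AMPA to summed NMDA genes was 3.25 and 3.06 in E18 and 1.34 and 1.42 in control. As for the AMPA shares, 2 libraries a group allow no test of these ratios below p = 0.333 by exact permutation.

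**Figure D2:**
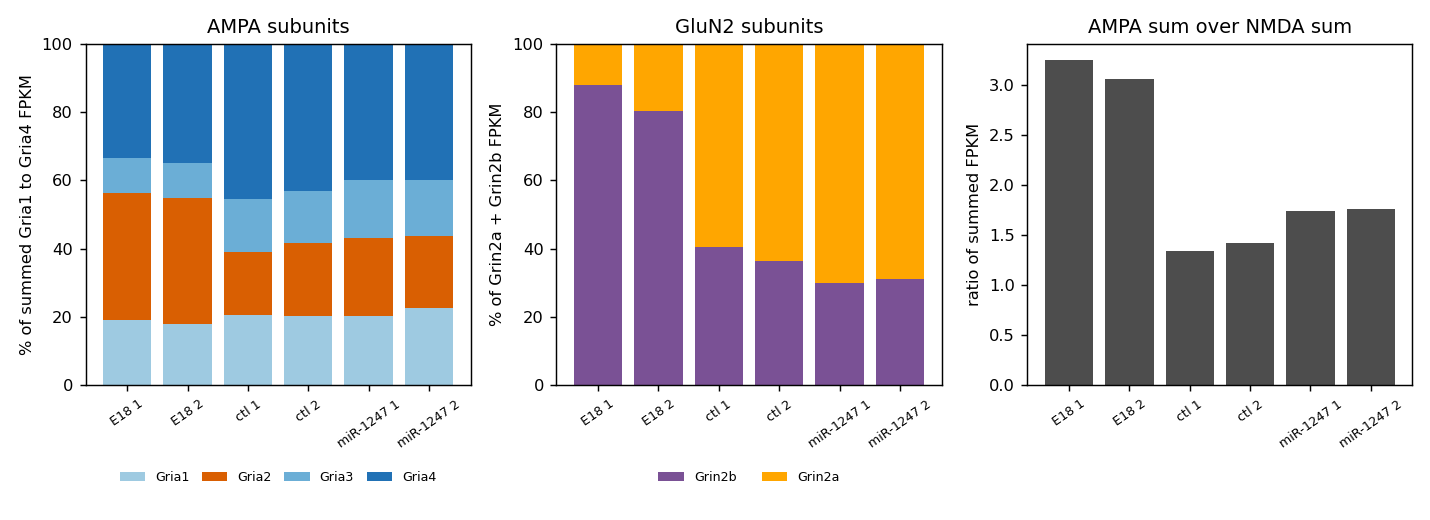
Stacked bars give, for each library, the share of Gria1 to Gria4 in their summed FPKM (left) and of Grin2b and Grin2a in theirs (middle), and plain bars give the ratio of summed AMPA to summed NMDA genes (right); ctl is adult control. Grin2b takes over 80% of the GluN2 pair in both E18 libraries and under 41% in all 4 adult libraries.

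Grik2 and Grm7 moved in opposite directions. Grik2 (chromosome 10, 48970929 to 49664862), for the kainate receptor subunit GluK2, was at 4.65 and 3.72 FPKM in control and 9.34 and 9.45 FPKM in E18, with no overlap (log2 difference 1.01 ± 0.174, adjusted p = 0.00196). Grm7 (chromosome 6, 110616714 to 111544191) was at 31.1 and 29.0 FPKM in control and 7.18 and 7.06 FPKM in E18. Its means of 30.1 ± 1.55 and 7.12 ± 0.0866 FPKM stood in a ratio of 4.22 (−1.93 ± 0.0932, adjusted p = 5.38e-06). None of the 10 genes changed direction between E18 and control under any alternative computed, scaling included, and the 9 calls held without each library in turn.

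**Figure D3:**
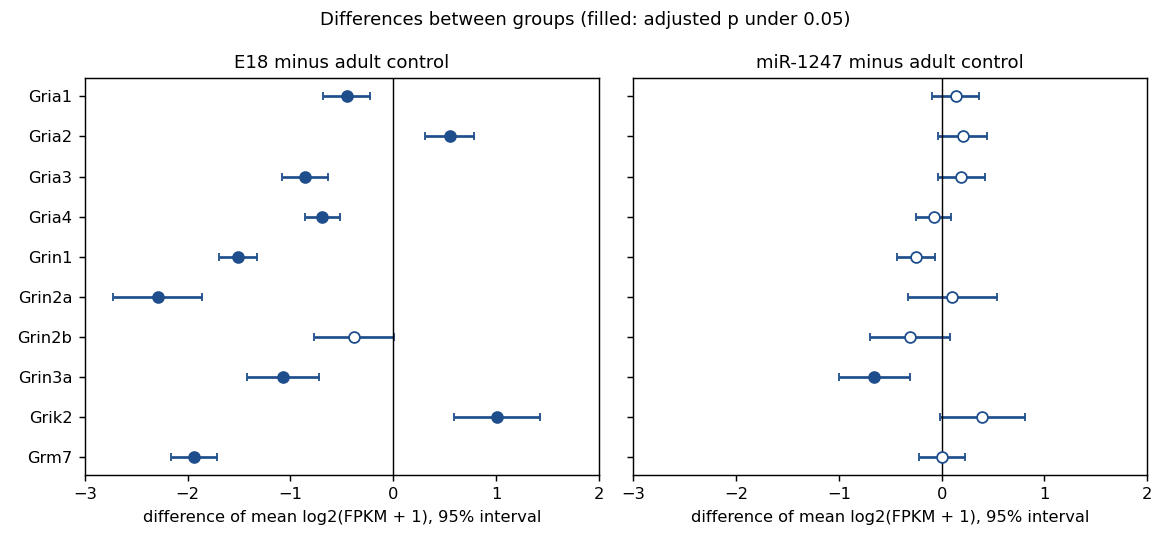
Difference of mean log2(FPKM + 1) for each of the 10 genes, E18 minus adult control (left) and miR-1247 minus adult control (right), with 95% intervals from limma; filled points passed an adjusted p of 0.05. The left panel runs from −2.29 (Grin2a) to 1.01 (Grik2), and the right panel holds 1 filled point, Grin3a at −0.65.

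The order of the genes by level also differed between E18 and control. In control the order from high to low was Grin1, Gria4, Grm7, Gria1, Gria2, Gria3, Grin3a, Grin2a, Grik2 and Grin2b. In it the libraries of Gria1 and Gria2 overlapped, as did those of Grik2 and Grin2b. In E18 it was Gria2, Gria4, Grin1, Gria1, Gria3, Grik2, Grm7, Grin3a, Grin2b and Grin2a, with no overlap between neighbours. Grin1 thus ranked 1 in control and 3 in E18, and Gria2 ranked 5 in control and 1 in E18.

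Promoter sequences from RefSeq (GRCm38.p6) cover 250 bases before and 50 bases after a gene's start and were found for 5 of the 10 genes, namely Gria2, Gria4, Grin1, Grik2 and Grm7. The 4 printed here set the 2 genes that were higher in E18 beside 2 that were lower, with each CG pair in capitals.
Gria2 (chr3:80802786-80803085, minus strand): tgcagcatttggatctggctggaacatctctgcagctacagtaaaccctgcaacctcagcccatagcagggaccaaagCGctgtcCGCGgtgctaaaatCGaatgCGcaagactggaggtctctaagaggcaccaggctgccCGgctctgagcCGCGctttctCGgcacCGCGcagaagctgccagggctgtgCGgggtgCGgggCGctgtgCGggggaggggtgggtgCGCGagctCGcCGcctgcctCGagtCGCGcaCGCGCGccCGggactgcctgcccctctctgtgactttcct
Grik2 (chr10:49788705-49789004, minus strand): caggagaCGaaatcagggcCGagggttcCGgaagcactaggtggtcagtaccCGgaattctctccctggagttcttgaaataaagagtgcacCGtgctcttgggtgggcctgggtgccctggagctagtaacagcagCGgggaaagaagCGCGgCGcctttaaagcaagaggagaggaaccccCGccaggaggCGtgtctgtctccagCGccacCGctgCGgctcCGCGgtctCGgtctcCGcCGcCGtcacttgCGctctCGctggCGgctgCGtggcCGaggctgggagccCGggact
Grin1 (chr2:25319138-25319437, minus strand): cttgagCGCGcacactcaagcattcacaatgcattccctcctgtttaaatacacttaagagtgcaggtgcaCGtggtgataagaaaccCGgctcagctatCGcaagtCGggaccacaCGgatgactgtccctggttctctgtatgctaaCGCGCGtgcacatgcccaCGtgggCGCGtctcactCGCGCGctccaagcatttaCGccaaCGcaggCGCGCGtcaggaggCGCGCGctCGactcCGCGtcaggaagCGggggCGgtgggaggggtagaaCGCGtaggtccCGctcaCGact
Grm7 (chr6:110645262-110645561, plus strand): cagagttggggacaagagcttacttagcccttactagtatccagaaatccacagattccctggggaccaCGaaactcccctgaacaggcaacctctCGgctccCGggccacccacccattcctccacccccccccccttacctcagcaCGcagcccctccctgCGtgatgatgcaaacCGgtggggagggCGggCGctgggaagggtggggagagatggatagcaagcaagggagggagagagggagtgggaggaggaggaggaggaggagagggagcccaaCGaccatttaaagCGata
CG pairs numbered 26 in Gria2, 26 in Grik2, 33 in Grin1 and 10 in this entry of Grm7, against a median of 7 over 32851 promoters of 300 bases. The G and C content was 65.7%, 64.7%, 60.7% and 61%, and the median of all promoters 52.7%. All 4 windows thus held more CG pairs than the median, with Grm7 closest to it. The windows not printed, of Gria4 (lower in E18) and a second entry of Grm7, held 17 and 15. A GC box (GGGCGG, both strands) was in the windows of Grin1 and Grm7 and in 35.7% of all promoters. A TATA box (TATAAA, both strands) was in none of the 5 genes' windows and in 13.6% of all promoters.

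Beyond the 10 genes, 6 lists of the glutamatergic synapse were counted in the same comparison, with the same 70.1% of all genes called (40.2% higher, 29.8% lower) as background. Of 16 further receptor genes 10 were tested, of which 5 were lower and 3 higher in E18 (median −0.59). Grm8, of the same receptor group as Grm7, differed by −1.36. Grm3 (0.70) and the kainate subunit gene Grik5 (0.52) were higher.

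Of 18 tested genes for proteins that assemble AMPA and kainate receptors or ride with them, 11 were lower and 5 higher (median −0.80). Cacng3, for an AMPA receptor auxiliary subunit of the TARP family, was at 71.7 and 62.5 FPKM in control and 2.06 and 2.64 FPKM in E18 (−4.35 ± 0.120, adjusted p = 5.29e-07). Gsg1l, for another auxiliary subunit, was at 13.3 ± 0.917 FPKM in control and 0.631 ± 0.0810 FPKM in E18 (−3.13). The TARP gene Cacng4 (0.73) and Shisa7 (1.97) were higher in E18. The TARP genes thus differed in both directions.

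Of 23 tested postsynaptic scaffold and kinase genes 9 were lower and 7 higher (median −0.22), a share of calls at the background. The scaffold gene Dlgap1 went from 84.0 ± 0.0989 FPKM in control to 4.06 ± 0.665 FPKM in E18 (−4.08), and the kinase gene Camk2a differed by −2.59. Homer3 (2.94) and Lin7c (2.08), also for scaffold proteins, were higher. Of 17 tested genes for partners across the synaptic cleft 13 were lower and 2 higher (median −1.70). Nrxn3, a neurexin, differed by −3.18 and Elfn1, whose product binds group III metabotropic receptors such as mGluR7, by −3.10. Nlgn1 (0.61) and the Nlgn3 locus, which also holds Med12 (0.29), were higher. Nlgn1 lost its call without E18 library 2 (adjusted p = 0.0569), and Nlgn3 lost it in 7 alternatives, among them all 4 other scalings.

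Genes of glutamate supply, uptake and D-serine were lower in 6 and higher in 1 of 10 tested (median −1.22). Got1, for an aminotransferase that links aspartate and glutamate, differed by −2.29, and Slc1a1, for a neuronal glutamate transporter, by −1.98. Srr, for the enzyme that makes the NMDA receptor coagonist D-serine, was higher (0.55), a call lost without E18 library 1 (adjusted p = 0.0693). Glul, for the glial enzyme glutamine synthetase, stands in this list and among the glial markers, and was at 463 and 122 FPKM in control and 80.1 and 84.7 FPKM in E18.

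**Figure D4:**
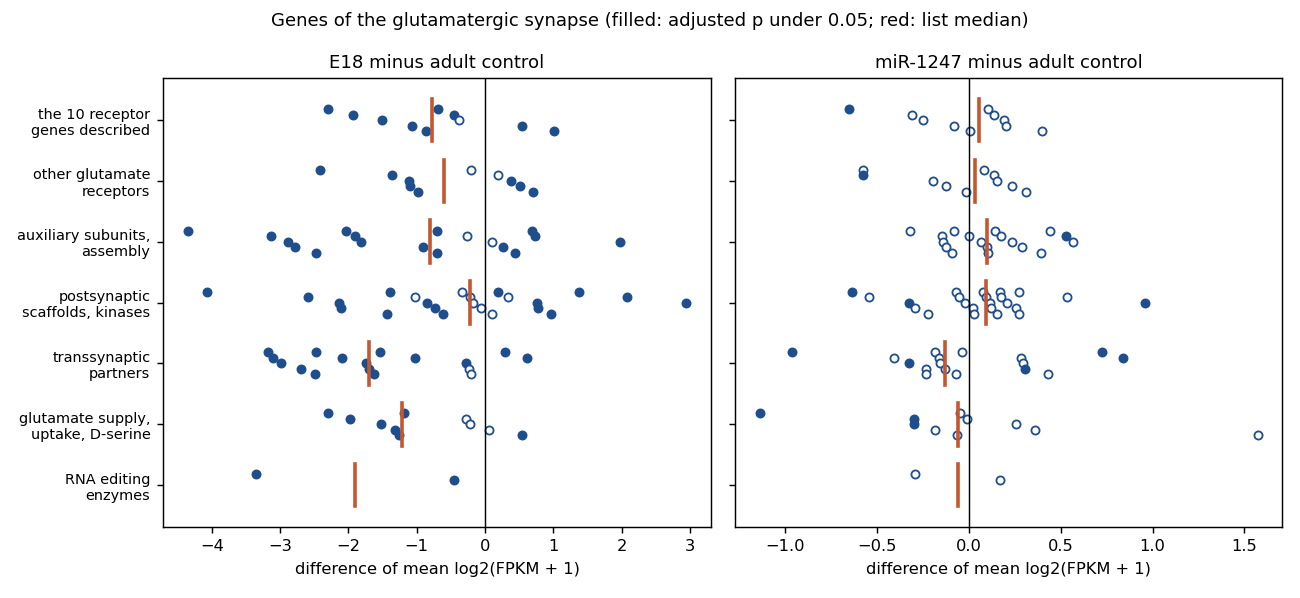
Difference of mean log2(FPKM + 1) for each tested gene (points; filled where adjusted p was under 0.05) of the 10 receptor genes and 6 synapse lists, E18 minus control (left) and miR-1247 minus control (right), with list medians as red lines; the x axes differ. All list medians lie below 0 on the left, from −0.22 to −1.90, and from −0.13 to 0.10 on the right.

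The adult groups were compared to see how receptor RNA stood when miR-1247-5p was supplied. The mature sequence of miR-1247-5p (RefSeq, GRCm38.p6), shown because it is the treatment, has its seed, bases 2 to 8, in capitals.
mmu-miR-1247-5p: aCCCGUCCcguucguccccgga
The complement of that seed in a transcript reads GGACGGG. Among the 3′ untranslated regions of the canonical GENCODE transcripts, Grin2b alone of the 10 genes holds it, once. It is printed with its neighbours as the only match to the whole seed in a 3′ region of the 10 genes.
Grin2b, bases 17075 to 17081 of the 3′ region: ctggttagggaGGACGGGttttgagtgag
That region of Grin2b is 18865 bases long, against a median of 1480 over 9853 tested genes, of which 3.25% hold the match. None of the 10 coding sequences holds it, whereas 7.69% of all do, and the 5′ untranslated region of Gria1 holds it once. A shorter match of 6 bases, GACGGG, is in the 3′ regions of Grin2b (3 sites) and Grin1 (1 site), and in those of 8.95% of all. A match is a description of the letters only.

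Between adult miR-1247 and adult control RGCs, Grin3a was lower with miR-1247, and the other 9 genes did not pass the threshold. Of all genes tested, 9.75% were called (3.53% higher, 6.22% lower), so 1 of 10 is at the background. The 353 genes higher and 621 lower were 460 and 527 under median ratio scaling and 136 and 777 with equal totals. Their count of 974 was 185 and 177 without control library 1 or 2, 121 and 139 without miR-1247 library 1 or 2, and 239 and 242 without E18 library 1 or 2. The median difference of the 10 genes was 0.05, against −0.03 for all genes.

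Grin3a was at 9.92 and 8.78 FPKM in control and 5.79 and 5.35 FPKM in miR-1247, with no overlap. Its means were 9.35 ± 0.807 and 5.57 ± 0.310 FPKM (log2 difference −0.65 ± 0.145, adjusted p = 0.0409). The call was lost without each of the 6 libraries in turn, with adjusted p from 0.0794 to 0.154, and also when only the 4 adult libraries were fitted (adjusted p = 0.0793). Over the leave-one-out fits the difference stayed between −0.73 and −0.58. Beside it, the 14 RGC marker genes had a median difference of −0.79, and whether Grin3a follows them was not tested.

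Among the genes that did not pass, Grin1 was at 62.5 and 63.7 FPKM with miR-1247, below both control libraries (log2 difference −0.25 ± 0.0760, 95% interval −0.43 to −0.07, adjusted p = 0.0875). Grik2 was at 6.56 and 5.11 FPKM, above both control libraries (0.40, interval −0.02 to 0.81). Gria3 was at 23.4 and 23.0 FPKM (0.19, interval −0.04 to 0.42), again above control, and Gria2 at 31.1 and 29.5 FPKM (0.20, interval −0.03 to 0.44). Grin2b, the gene with the 3′ match to the whole seed, was at 2.97 and 3.31 FPKM, below control (−0.31, interval −0.70 to 0.08, adjusted p = 0.267). With 2 libraries against 2, groups that do not overlap reach only p = 0.333 by exact permutation. The share of all genes without overlap was not computed.

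Gria1 was at 27.7 and 31.5 FPKM with miR-1247 (0.13, interval −0.09 to 0.36), Gria4 at 54.2 and 55.8 FPKM (−0.08, interval −0.25 to 0.09) and Grin2a at 6.97 and 7.34 FPKM (0.10, interval −0.33 to 0.53). Grm7 was at 30.01 and 30.3 FPKM, within the range of the control libraries (0.01, interval −0.22 to 0.23). These intervals bound the differences that this number of libraries leaves possible, and do not show that levels were equal.

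Some ratios within a library did not overlap between the adult groups and others did, and the share without overlap was not computed. Gria2, for instance, overlapped, at 22.8% and 21.1% of the AMPA sum with miR-1247 and 18.6% and 21.3% in control. Of the ratios without overlap, 2 are given as examples. The AMPA sum over the NMDA sum was 1.74 and 1.75 with miR-1247 and 1.34 and 1.42 in control. Grin2b was 29.8% and 31.1% of the GluN2 pair with miR-1247 and 40.5% and 36.4% in control. These 2 examples were picked here after their values were seen and carry no test.

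Calls in the synapse lists between the adult groups are read against the 9.75% of all genes called. Of 10 further receptor genes Grid1 alone was lower (−0.58), of 18 auxiliary genes Shisa7 alone was higher (0.53), and of 23 scaffold and kinase genes Homer3 was higher (0.96) and Dlgap3 (−0.64) and Camk2d (−0.32) lower. Of 17 partners across the cleft 5 were called, 3 higher and 2 lower. Nptx2, for a secreted pentraxin that clusters AMPA receptors, rose from 106 ± 2.98 FPKM in control to 175 ± 2.78 FPKM (0.73 ± 0.0670, adjusted p = 0.00436), and Cbln2 rose from 87.3 ± 3.11 to 157 ± 1.90 FPKM (0.84). Elfn1 (−0.96) and the Nptxr locus, which also holds Cbx6 (−0.33), were lower. The vesicular glutamate transporter gene Slc17a6 (−1.14, both its loci summed), also an RGC marker, and Got2 (−0.30) were 2 of the 3 genes called, all lower, among 10 supply genes. Neither editing enzyme gene passed. Of these 11 named calls 2, Nptx2 and Slc17a6, held without each library in turn.

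E18 and adult miR-1247 RGCs were set against each other with the same E18 libraries, so the comparison is not independent of that with control. Again 7 of the 10 genes were lower in E18 and 2 higher, where 69.9% of all genes were called (41.5% higher, 28.4% lower). Grin2a (log2 difference −2.39 ± 0.181), Grm7 (−1.94 ± 0.0932), Grin1 (−1.26 ± 0.0760), Gria3 (−1.05), Gria4 (−0.61) and Gria1 (−0.59) were lower and kept their calls without each library. The calls of Grin3a (−0.42, adjusted p = 0.0369), Gria2 (0.35, adjusted p = 0.0182) and Grik2 (0.61, adjusted p = 0.0175) did not hold without each library. Gria2 had an adjusted p of 0.194 and Grik2 of 0.0582 under median ratio scaling. Grin2b differed by −0.07 (interval −0.46 to 0.32).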

How the data were processed

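Poly-A RNA of 6 RGC libraries was read as deposited FPKM values. The submitters' processing notes name HISAT2, Cufflinks and Cuffdiff as the authors' tools and mm39 as their build; versions, annotation and the filter behind the listed genes are not given in the sources used here. The deposited FPKM carry an added 1e-05, which was subtracted. The authors' deposited log2 ratios matched ratios recomputed from the FPKM within 0.003 and were used for that check only. Depth is unknown. FPKM of different loci of a gene name were summed, names with the same loci were taken once (10162 genes), and the 9987 genes with a mean of at least 1 FPKM were tested. Locus starts were written counting from 1.

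All 6 libraries entered 1 limma 3.58.1 (R 4.3.3) model of log2(FPKM + 1) with 3 group means and variances that follow the mean level. Tests are two-sided, with Benjamini-Hochberg adjustment over all genes, called at 0.05. The model was tested on simulated data of 9987 genes, for E18 against control only. Of 100 genes changed by 1 (log2) 64 were called and of 100 changed by 2, 92. There were 11 false calls among the genes left unchanged. Far fewer genes were changed than the 70.1% called in the data, so these counts do not give the error of the real comparisons. Group values are means ± SD, n = 2.

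The members and lists were chosen with earlier results of these data known. The text names all 10 members and, from each synapse list, the called genes with the 2 highest and 2 lowest differences; some items this rule or the pattern search picks are not reported here. Alternatives varied the pseudocount, the filter, the scaling, the variance trend, the libraries fitted and the summing of loci; equal totals without mitochondrial genes was chosen after seeing the data. Seed matches were searched in GENCODE vM39 transcripts. Python 3.11.15 and pandas 2.3.3 handled tables.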

Additional observations from a re-analysis of the deposited data

How the results depend on the processing

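For the 10 receptor genes, 501 of 534 values under alternatives in the 3 comparisons kept both direction and side of the threshold, 26 lost a call, 4 gained one (Grin2b, E18 against control) and 3 changed sign. The sign changes were all Grm7 between the adult groups, at −0.094 with equal totals and from −0.045 to 0.057 when leaving out 1 library. The count of 974 genes called between the adult groups was 343 when variances did not follow the level and 347 when the fit held the 4 adult libraries alone, and ranged from 121 to 242 without 1 library; the cause was not tested, beyond the fewer libraries in the fits that leave some out. In both E18 comparisons the counts stayed within 1.5 times of 6998 and 6979. Scaling moved the median gene of E18 against control from 0.16 to 0.02 (median ratio). With the replicate number as a block, 584 genes were called between the adult groups, and Grin3a lost its call there (adjusted p = 0.0666) and between E18 and miR-1247 (adjusted p = 0.0536); the block changed no other call of the 10 genes. The numbers pair nothing that can be seen, since same-numbered libraries of different groups deviated together with r from −0.008 to 0.004 over 9987 genes. No depth is known, so no limit on low values such as Grin2a in E18 can be given.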

Other observations

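The genes whose pattern over the 6 libraries lay closest to each receptor gene were looked up among the 9987 genes tested, by the root mean square difference of centred log2(FPKM + 1). This describes 6 points that share their libraries and carries no test. For Gria3 the second closest was Cacng7, for a TARP auxiliary subunit, at 117 FPKM in control, 129 in miR-1247 and 62.3 in E18 (mean values, distance 0.0335). For Grm7 the second closest was Frrs1l, for an AMPA receptor assembly factor (32.3, 34.7 and 7.88 FPKM, distance 0.0527). Cntn1, an adhesion molecule of axons, was second closest to Grin3a (56.5, 36.1 and 24.5 FPKM, distance 0.0614) after Nipal2. The closest to Gria2 was Tnrc18, to Gria1 Marf1, to Gria4 Mgat1, to Grin1 Magi2, to Grin2a Btbd8, to Grin2b 2610002M06Rik and to Grik2 Eogt.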
